A study of Mus musculus with 24 samples.

Results

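The genes described here are 10 members of the interleukin-6 (IL-6) cytokine family and its signalling pathway in the mouse. They are the ligands Il6, Lif and Osm, the receptor chains Il6ra, Il6st, Lifr, Osmr and Il31ra, the transcription factor Stat3 and its feedback inhibitor Socs3. They were taken by symbol and not by a cut on measured values, but with earlier results of these data known. All 10 were found among the 22609 genes of the count tables. After the filter on low counts, 10 members could be tested in hind paw, 8 in dorsal root ganglia (DRG; not Il6 and Osm) and 7 in spinal cord (not Il6, Osm and Il31ra).

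RNA was sequenced from hind paw punch biopsies, from DRG of lumbar levels L3 to L5, where the sensory neurons of the paw have their cell bodies, and from the lumbar spinal cord. The animals were male C57 mice aged 8 to 12 weeks. The hind paw was injected with 10 µg per injection of an agonist antibody to LTβR, the lymphotoxin beta receptor, which belongs to the TNF receptor superfamily, or with 10 µg of IgG. Agonist libraries came from 1 day after 1 injection (day 1) or from day 6 of a course of 2 injections (day 6). IgG controls came from 1 day after IgG, and the number of IgG injections is not given. The groups, of 3 libraries each, were control, day 1 and day 6 in paw and in DRG, and day 1 and day 6 in spinal cord. An IgG group of spinal cord was not analysed here. No day-6 IgG group was used either. The agonist, the time since injection and the number of injections therefore cannot be told apart in any difference between day 6 and control. The labels date day 6 in more than one way, from the first injection or after both. They do not say that the numbered samples of a group came from separate animals, so each p-value reflects only how far these samples spread, which may be technical.

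IL-6 family cytokines act through receptor complexes that share the signalling chain encoded by Il6st. Binding activates Janus kinases (JAK), which phosphorylate STAT3. STAT3 then enters the nucleus and induces, among other genes, Socs3, whose product binds the receptor complex and shuts the signal down. In sensory neurons the family is known for roles in inflammatory pain, in the response to nerve injury and in itch.

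The 250 bases upstream of the RefSeq start site (build GRCm38.p6) of 3 members are shown because these members carry the patterns described below. Il6 had the largest difference between paw groups, Socs3 followed Stat3 across paw libraries, and Il31ra was far higher in DRG than in paw or cord. Capitals mark matches to 3 motifs searched on both strands: the STAT motif TTCNNNGAA, the AP-1 motif TGANTCA and the κB consensus.
Il6, chr5:30012864-30013113, plus strand: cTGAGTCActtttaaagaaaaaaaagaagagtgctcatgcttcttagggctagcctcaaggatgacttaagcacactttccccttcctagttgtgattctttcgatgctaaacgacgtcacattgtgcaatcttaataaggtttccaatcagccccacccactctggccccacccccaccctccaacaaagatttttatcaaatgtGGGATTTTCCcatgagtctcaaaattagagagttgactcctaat
Il31ra, chr13:112580663-112580912, minus strand: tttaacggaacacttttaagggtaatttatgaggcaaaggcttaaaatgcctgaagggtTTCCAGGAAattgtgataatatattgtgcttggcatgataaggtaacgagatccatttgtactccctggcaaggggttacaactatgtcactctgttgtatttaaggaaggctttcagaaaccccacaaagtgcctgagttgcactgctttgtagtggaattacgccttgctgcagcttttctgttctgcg
Socs3, chr11:117969367-117969616, minus strand: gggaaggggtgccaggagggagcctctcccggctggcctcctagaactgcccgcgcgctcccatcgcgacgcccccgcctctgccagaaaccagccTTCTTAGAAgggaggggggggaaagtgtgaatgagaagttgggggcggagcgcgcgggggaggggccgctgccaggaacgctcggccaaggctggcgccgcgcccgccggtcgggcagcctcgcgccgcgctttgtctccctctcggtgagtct
The Il6 sequence held an AP-1 match at -249 and a κB match at -44 relative to the start site, Il31ra held a STAT match at -191, and Socs3 held a STAT match at -154. Promoters of 9 members were in the RefSeq table; Osm was not matched. In windows of 300 bases around the start, Lif also held an AP-1 match at -228 and Osmr one at 3, and Il6ra, Il6st, Lifr and Stat3 held no match to these letters. Of 32851 mouse promoters of the same length, 8.30% held the STAT motif, 7.81% the AP-1 motif and 4.51% the κB consensus. The matches describe the sequence and are not evidence of binding.

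Reads counted in genes ranged from 24.2 to 41.0 M (mega) per library in paw, 21.6 to 34.2 M in DRG and 15.7 to 26.3 M in spinal cord. Levels are CPM values, the reads of a gene per M counted reads, scaled with TMM factors within a tissue. Marker genes matched the labelled tissues. The 8 sensory neuron markers summed to between 4587 and 5576 CPM in DRG, between 8.79 and 16.4 CPM in paw and between 352 and 435 CPM in cord, and the 9 keratinocyte markers summed to between 48634 and 93801 CPM in paw and between 46.2 and 147 CPM in DRG. Some libraries stood apart from their group. The 12 skeletal muscle markers summed to 193 CPM in paw control library 1 and to between 4496 and 34998 CPM in the other 8 paw libraries, and in DRG the same markers ranged from 76.6 to 5408 CPM. In DRG control library 1, 31.5% of reads fell outside annotated genes, while this share lay between 13.1 and 13.8% elsewhere in DRG.

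The first question was whether the family changed at the injection site. In paw, 1 day after the agonist, Lif stood at 1.99 times and Il6 at 0.313 times the IgG level, but neither passed the test. On day 6, Il6 stood at 0.0929 times, Stat3 at 0.719 times and Socs3 at 0.492 times the IgG level, and again none passed. A quasi-likelihood F test in edgeR, adjusted over all 15287 genes by Benjamini-Hochberg with a threshold of 0.05, called 0 of the 10 members on day 1 against control, where it called 0.00654% of all genes. It called 0 of 10 on day 6 against control, where the share over all genes was 0.706%, and 0 of 10 on day 6 against day 1, where it was 1.03%. At an unadjusted p under 0.05 there were 1, 2 and 0 members in these comparisons, while 10.6%, 9.74% and 14% of all genes reached that level. The limma voom test called 0 members in each, and DESeq2 called 0, 1 (Il6) and 0. Where groups of 3 libraries are said to overlap or not, here and below, this describes the values only. The share of all genes whose groups did not overlap was not computed.

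**Figure D1:**
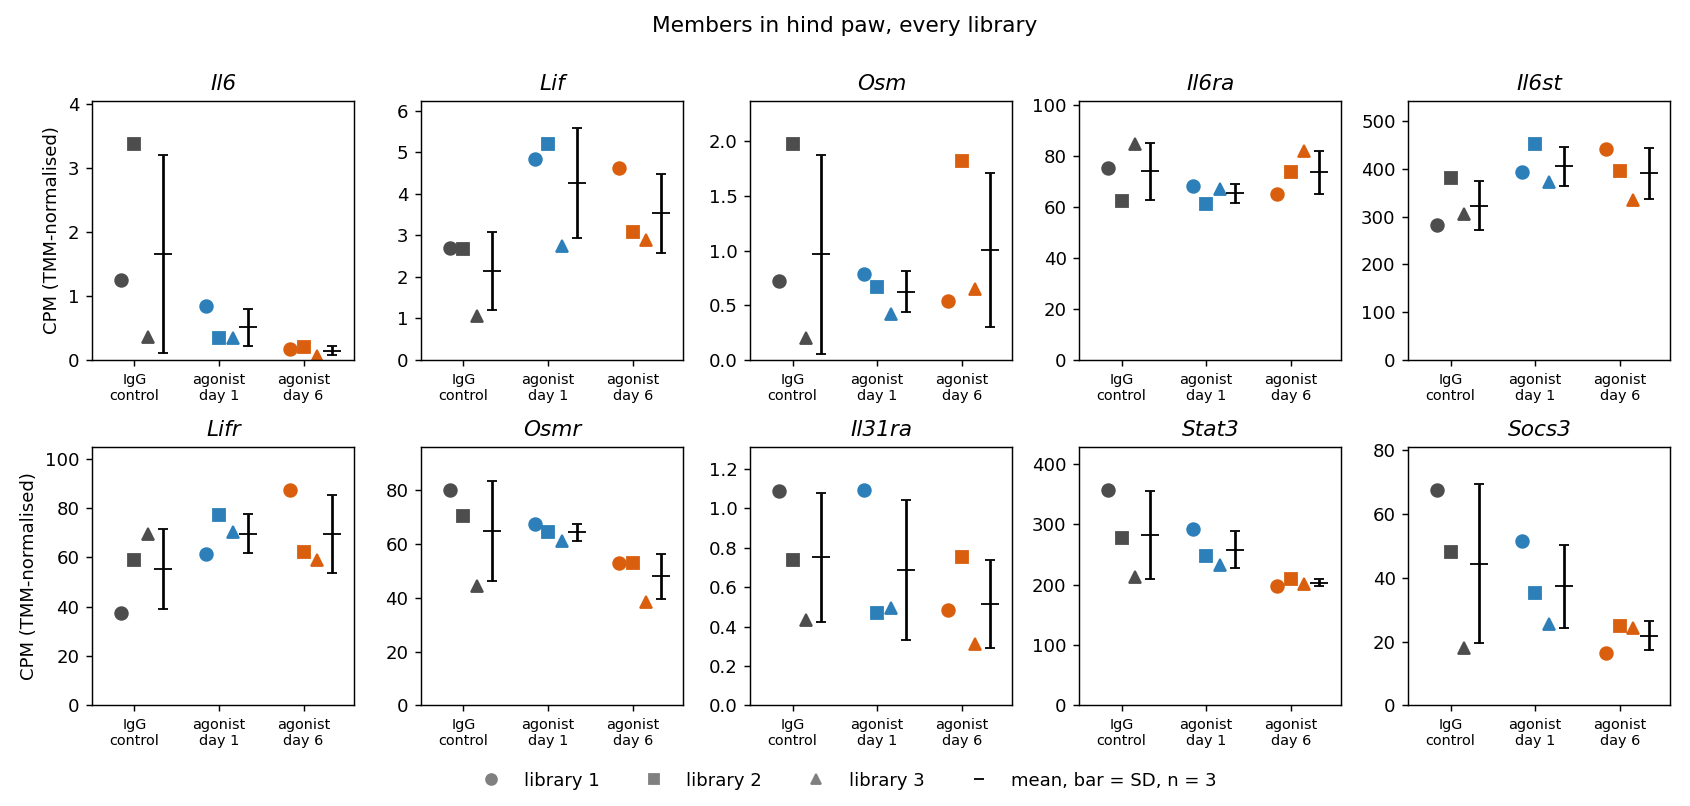
Level of each of the 10 members in every hind paw library, in CPM on a linear axis from 0, for the IgG control, agonist day-1 and agonist day-6 groups; symbols mark the library number, and the horizontal dash with its bar is the mean with SD (n = 3). The 3 day-6 libraries lie below all controls for Il6 and Stat3, control library 3 is the lowest control for Il6, Lif, Osm, Osmr, Il31ra, Stat3 and Socs3, and for Lif every agonist library lies above the controls.

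Il6 encodes the founding ligand of the family, a cytokine induced in inflamed tissue. In paw it stood at 1.25, 3.37 and 0.354 CPM in the controls, from 31, 82 and 9 reads. On day 1 it stood at 0.842, 0.335 and 0.344 CPM, from 30, 10 and 9 reads. On day 6 it stood at 0.172, 0.205 and 0.0621 CPM, from 6, 9 and 2 reads. The controls were spread over almost an order of magnitude, day 1 overlapped with them, and every day-6 library lay below every control and every day-1 library. Il6 passed the filter on low counts in paw only through the control and day-1 libraries. Its day-6 difference was therefore partly set by the filter. A stricter filter, at least 1 CPM in at least 3 libraries, left Il6 out of the paw fit, where 7 members were then tested. The log2 difference from control was -1.67 ± 0.75 (SE) on day 1 (edgeR adjusted p = 0.473) and -3.43 ± 0.84 on day 6 (edgeR adjusted p = 0.142; unadjusted p = 0.0029). By unadjusted p, Il6 ranked 309 of 15287 genes on day 6. DESeq2 gave -3.47 with an adjusted p of 0.0040, a call that edgeR and voom (adjusted p = 0.294) did not make. Without control library 2, the highest, the edgeR difference was -2.39 (adjusted p = 0.323). Between day 6 and day 1 the difference was -1.75 ± 0.87 (edgeR adjusted p = 0.403).

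Lif encodes leukaemia inhibitory factor, a ligand of the pair of LIFR and the shared chain that is released after nerve injury. It was at 2.70, 2.67 and 1.06 CPM in the paw controls, 4.83, 5.20 and 2.75 CPM on day 1 and 4.63, 3.07 and 2.89 CPM on day 6. All agonist libraries lay above all controls, although the lowest agonist value was just above the highest control. The log2 difference from control was 0.99 ± 0.39 on day 1 (edgeR adjusted p = 0.445; unadjusted p = 0.034) and 0.72 ± 0.39 on day 6 (edgeR adjusted p = 0.635). Osm encodes oncostatin M, a ligand made mainly by myeloid cells. It was at 0.725, 1.97 and 0.196 CPM in the controls, 0.786, 0.671 and 0.421 CPM on day 1 and 0.543, 1.82 and 0.652 CPM on day 6. These groups overlapped throughout, and the 95% confidence interval of the day-6 log2 difference from control ran from -1.58 to 1.74, that is, from 0.336 to 3.33 times the control level.

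Among the receptor chains, Il6ra encodes the chain that binds IL-6. Its paw levels were 75.2, 62.1 and 84.6 CPM in controls, 68.2, 61.2 and 66.9 CPM on day 1 and 65.3, 73.6 and 82.0 CPM on day 6, and the groups overlapped. The log2 difference was -0.18 ± 0.13 on day 1 against control (edgeR adjusted p = 0.586) and 0.17 ± 0.13 on day 6 against day 1 (edgeR adjusted p = 0.573), and the day-6 interval against control ran from -0.30 to 0.28. Il6st, the shared chain, was at 282, 381 and 306 CPM in controls, 393, 451 and 372 CPM on day 1 and 442, 395 and 335 CPM on day 6. It was higher than control by 0.33 ± 0.15 on the log2 scale on day 1 (edgeR adjusted p = 0.484) and by 0.27 ± 0.15 on day 6 (edgeR adjusted p = 0.644), and control library 2 overlapped with both agonist groups. Lifr, the chain that pairs with the shared chain to bind LIF, was at 37.6, 58.8 and 69.5 CPM in controls, 61.2, 77.1 and 70.4 CPM on day 1 and 87.4, 61.9 and 58.9 CPM on day 6. Its log2 difference from control was 0.33 ± 0.23 on both days (edgeR adjusted p = 0.579 and 0.762), and the low value of control library 1, the library with little muscle RNA, stood apart. With the skeletal muscle score as a covariate the difference was 0.11 on day 1 and 0.23 on day 6. Control library 1 also had the lowest marker sums of Schwann cells (405 CPM), endothelial cells (283 CPM) and adipocytes (210 CPM) in paw. Its keratinocyte sum was the highest (93801 CPM). Muscle cannot be told apart from these cells here, and the part of any of them in the Lifr level was not tested.

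Osmr encodes the signalling chain of the oncostatin M receptor, which also pairs with IL-31RA to form the receptor of the itch cytokine IL-31. Its paw levels were 80.1, 70.4 and 44.2 CPM in controls, 67.3, 64.3 and 61.2 CPM on day 1 and 52.9, 52.8 and 38.4 CPM on day 6. Every day-6 library was below every day-1 library, while control library 3 overlapped with day 6. The log2 difference was -0.43 ± 0.21 on day 6 against control (edgeR adjusted p = 0.566) and -0.42 ± 0.21 against day 1 (edgeR adjusted p = 0.409). Il31ra was close to the detection limit in paw, at 1.09, 0.740 and 0.432 CPM in controls, 1.10, 0.470 and 0.497 CPM on day 1 and 0.486, 0.751 and 0.311 CPM on day 6, from 10 to 39 reads per library. Its groups overlapped, with a day-6 log2 difference of -0.52 ± 0.50 (edgeR adjusted p = 0.845).

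Stat3, the transcription factor downstream of the shared chain, was at 357, 277 and 213 CPM in the paw controls, 291, 248 and 233 CPM on day 1 and 198, 209 and 202 CPM on day 6. The 3 day-6 libraries lay close together and below all others, whereas the controls were widely spread. On the log2 scale Stat3 was lower on day 6 with a difference of -0.48 ± 0.17 against control (edgeR adjusted p = 0.386; unadjusted p = 0.024) and of -0.34 ± 0.17 against day 1 (edgeR adjusted p = 0.415). Without control library 1 the difference from control was -0.24. Socs3, the feedback inhibitor induced by STAT3, was at 67.5, 47.9 and 17.8 CPM in controls, 51.3, 35.0 and 25.3 CPM on day 1 and 16.6, 24.8 and 24.1 CPM on day 6. All day-6 libraries were below all day-1 libraries, but control library 3 lay within the day-6 range. The log2 difference was -1.02 ± 0.47 on day 6 against control (edgeR adjusted p = 0.548) and -0.77 ± 0.47 against day 1 (edgeR adjusted p = 0.490). Without control library 3 the difference from control was -1.40 and without control library 1 it was -0.55, and neither passed (edgeR adjusted p = 0.141 and 0.797).

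Control library 3 was also the control with the least neutrophil RNA. The 7 neutrophil markers found in the files summed to 312, 390 and 45.0 CPM in the 3 controls, 63.8, 19.96 and 31.3 CPM on day 1 and 23.6, 130 and 14.4 CPM on day 6. No neutrophil marker was at 0 in any paw library, and 0 of the 6 tested were called in any paw comparison. The 11 macrophage and monocyte markers summed to between 283 and 407 CPM in controls, 258 and 425 CPM on day 1 and 831 and 1319 CPM on day 6. Of these markers, 6 of 11 were called higher on day 6 against control and none was at 0. The part of these cells in the levels of Il6, Stat3 and Socs3 was not tested. With the skeletal muscle score as a covariate, the day-6 differences were -3.49 for Il6, -0.37 for Stat3 and -0.80 for Socs3, and none passed (edgeR adjusted p = 0.102, 0.282 and 0.484).

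**Figure D2:**
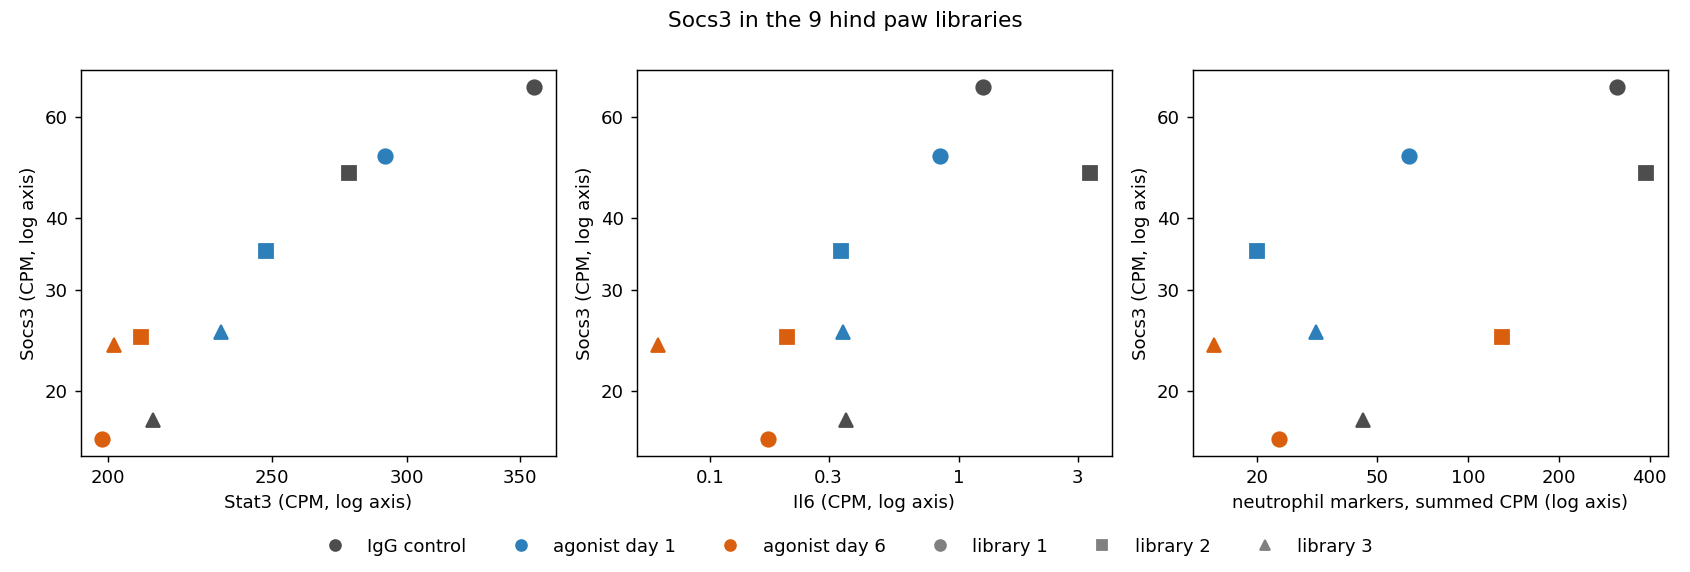
Socs3 level in each of the 9 hind paw libraries (CPM, log axis) against Stat3 (CPM, log axis), Il6 (CPM, log axis) and the summed level of neutrophil marker genes (CPM, log axis), coloured by group, with symbols for the library number. Socs3 and Stat3 rank the libraries in nearly the same order, from 16.6 and 198 CPM in day-6 library 1 to 67.5 and 357 CPM in control library 1, and the neutrophil markers are highest in controls 1 and 2.

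Socs3 had Stat3 as its closest match in paw. Matches were sought among 12976 genes averaging 1 CPM or more. Provisional gene models (symbols starting with LOC or with Gm and a digit, or ending in Rik) had been left out, also in DRG. The 4 genes whose log2 CPM correlated best with Socs3 over the 9 paw libraries were Stat3 (Pearson r = 0.95), Cxcl5, which encodes a neutrophil-attracting chemokine (0.94), Ddx23 (0.94) and Morc2a (0.94). These libraries come from 3 treatment groups, share the features above, and the matches are the highest of many, so the r values are a description without a test. The closest matches of Osmr in paw were Lbp, an acute-phase lipopolysaccharide-binding protein (0.95), Ddr2, a collagen receptor (0.95), Serpinb1a (0.94) and Pcsk5 (0.93). Those of Il6 in paw were Stfa2, a cysteine protease inhibitor of the stefin family (0.97), Atrip (0.94), Inhba (0.94) and Pcdhgb6 (0.93). In DRG, the matches of Socs3 included Irf2bp1 (0.95), Agpat9 (0.94) and Fam84b (0.94), and Osmr was closest to Ip6k1 (0.98), Heatr6 (0.97), Zfp316 (0.96) and Rimbp2 (0.95). Socs3 did not follow Stat3 there: r was -0.16 over the 9 DRG libraries, in which Stat3 differed by a factor of only 1.12.

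The second question was whether the pathway changed in the ganglia. Stat3, Lifr and Osmr varied least across the DRG libraries, and Lif and Il6ra most among the tested members. Within a member the 9 libraries differed by a factor of 1.12 for Stat3, 1.21 for Lifr, 1.22 for Osmr, 1.35 for Il31ra, 1.36 for Il6st, 1.79 for Socs3, 2.34 for Lif and 2.63 for Il6ra. edgeR called 0 of 8 tested members on day 1 against control, beside 0.168% of all 15461 genes, 0 of 8 on day 6 against control, beside 0% of all genes, and 0 of 8 on day 6 against day 1, beside 0.103%. There were 0 members at an unadjusted p under 0.05 in each of the 3 comparisons, and limma voom and DESeq2 also called 0 in each. Over all genes 7.4%, 3.6% and 6.83% had an unadjusted p under 0.05.

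Lif had the largest difference in DRG. It was at 3.71, 5.93 and 4.54 CPM in controls, 6.85, 5.99 and 6.46 CPM on day 1 and 2.93, 5.97 and 5.77 CPM on day 6. All day-1 libraries lay above all controls and all day-6 libraries, though the closest values, 5.99 and 5.97 CPM, nearly met. The log2 difference was 0.44 ± 0.26 on day 1 against control (edgeR adjusted p = 0.783) and -0.40 ± 0.25 on day 6 against day 1 (edgeR adjusted p = 0.805). Socs3 was at 17.4, 14.6 and 14.1 CPM in controls, 22.5, 19.7 and 13.8 CPM on day 1 and 18.9, 15.97 and 12.6 CPM on day 6, with groups that overlapped. Its log2 difference was 0.29 ± 0.20 on day 1 against control (edgeR adjusted p = 0.847) and -0.24 ± 0.20 on day 6 against day 1 (edgeR adjusted p = 0.839).

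Stat3 and the receptor chains other than Il6ra were estimated more tightly in DRG than in paw. For Il6ra the SE on day 1 against control was 0.39 in DRG and 0.13 in paw. Stat3 was at 457, 437 and 425 CPM in controls, 435, 449 and 475 CPM on day 1 and 440, 458 and 444 CPM on day 6, and its 95% interval on day 1 ran from -0.07 to 0.16 on the log2 scale. Lifr was at 565, 491 and 496 CPM, then 470, 465 and 526 CPM, then 514, 505 and 537 CPM in the same order, with log2 differences of -0.09 ± 0.07 on day 1 against control and 0.09 ± 0.07 on day 6 against day 1 (edgeR adjusted p = 0.873 and 0.829). For both genes the groups overlapped in each comparison. Il6st was at 285, 275 and 225 CPM in controls, 305, 287 and 275 CPM on day 1 and 233, 275 and 267 CPM on day 6. It differed by 0.14 ± 0.09 on day 1 against control and by -0.16 ± 0.09 on day 6 against day 1 on the log2 scale (edgeR adjusted p = 0.822 and 0.786).

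Osmr was at 54.6, 51.2 and 48.7 CPM in DRG controls, 49.1, 52.0 and 53.1 CPM on day 1 and 46.4, 52.7 and 56.8 CPM on day 6, and its interval on day 1 ran from -0.17 to 0.16. Its partner Il31ra was at 16.7, 17.4 and 13.9 CPM, then 14.6, 16.8 and 18.7 CPM, then 13.8, 15.97 and 15.8 CPM in the same order, with an interval of -0.19 to 0.31 on day 1 and a log2 difference of -0.14 ± 0.11 on day 6 against day 1 (edgeR adjusted p = 0.838). Neither chain of the IL-31 receptor separated the groups. Il6ra varied more, at 6.15, 11.5 and 14.4 CPM in controls, 10.0, 9.49 and 10.6 CPM on day 1 and 5.45, 9.47 and 14.1 CPM on day 6, and its day-1 interval ran from -1.01 to 0.82. Il6 had 2 to 14 reads and Osm 4 to 14 reads per DRG library, both spread over all 3 groups. At this depth only a large change of either could show. Without the filter on low counts, all 10 members were tested in DRG, and edgeR called 0 in each comparison. DRG control library 1, with its high share of reads outside genes, held the highest Lifr value, and its values of the other 9 members lay within the range of the other DRG libraries. Leaving this library out led to 0 members called in either comparison with control.

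**Figure D3:**
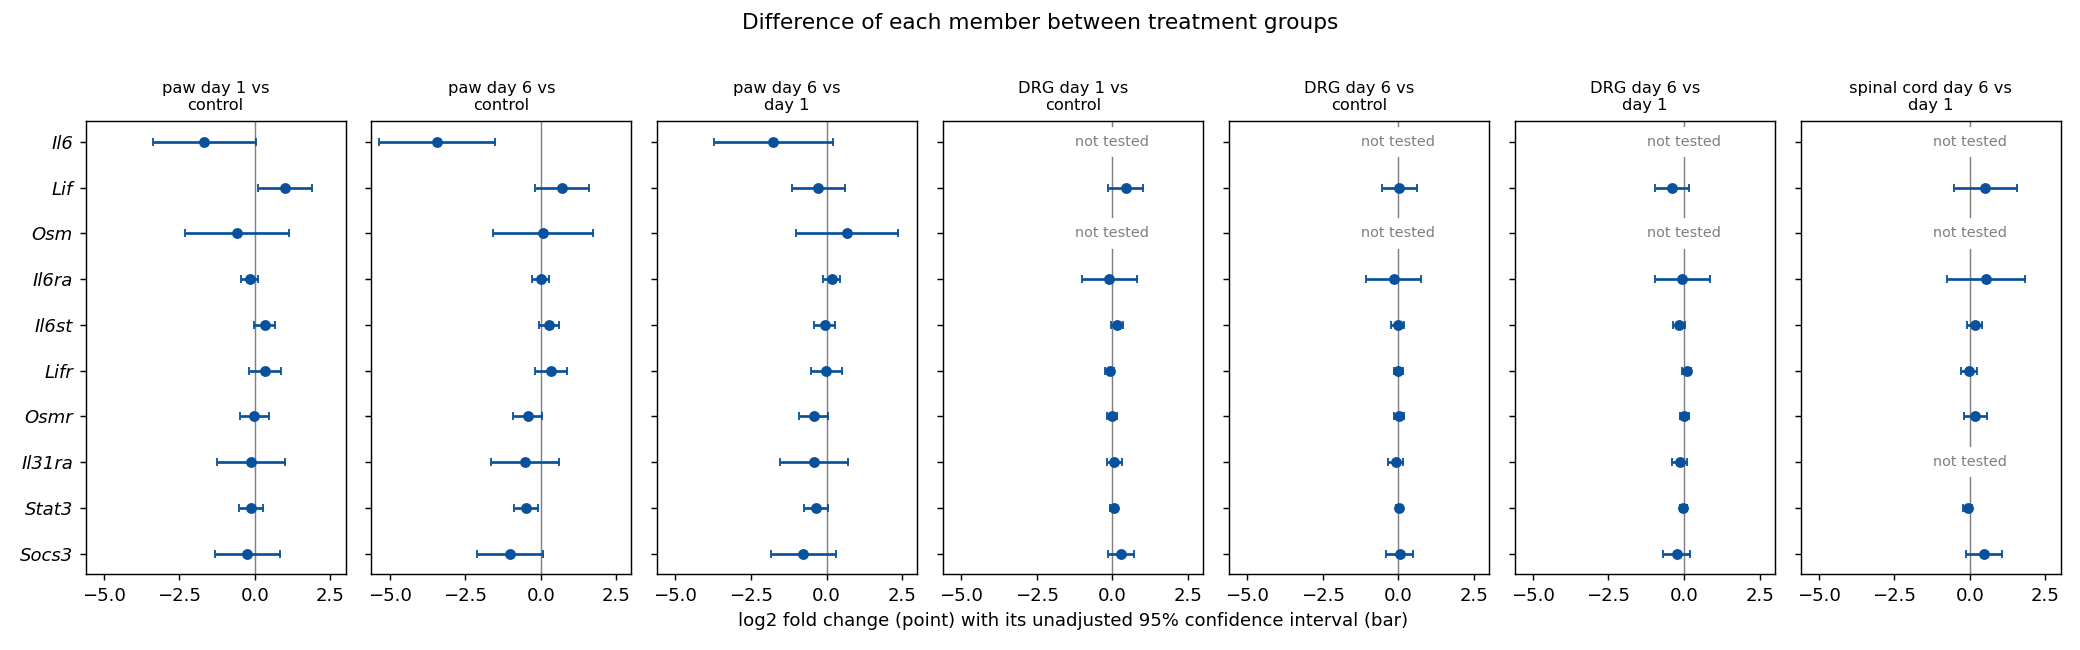
Log2 fold change of each member (points) with its unadjusted 95% confidence interval (bars) in the 7 comparisons of treatment groups within paw, DRG and spinal cord; the vertical line marks no difference, and members under the filter on low counts read as not tested. Intervals are narrow for Il6st, Lifr, Osmr and Stat3 in DRG and wide for Il6 and Osm in paw, and the interval lies away from 0 only for Lif on day 1 and for Il6 and Stat3 on day 6 against control in paw.

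In spinal cord only the 2 agonist groups could be compared. edgeR called 0 of 7 tested members on day 6 against day 1, beside 0% of all 15096 genes, and limma voom and DESeq2 called 0. There were 0 members at an unadjusted p under 0.05, against 9.7% of all genes. Socs3 was at 2.71, 3.43 and 3.74 CPM on day 1 and 5.51, 2.96 and 5.30 CPM on day 6, a log2 difference of 0.47 ± 0.26 (edgeR adjusted p = 0.565), with day-6 library 2 inside the day-1 range. Without that library, edgeR called 818 genes in all but still 0 members, and the adjusted p of Socs3 was 0.057. Il6ra was at 3.44, 7.72 and 3.57 CPM on day 1 and 7.56, 3.13 and 10.8 CPM on day 6, a log2 difference of 0.53 ± 0.53 (edgeR adjusted p = 0.730). The 3 libraries with high Il6ra were also those with the highest meningeal marker scores (0.64 on day 1, 0.63 and 0.47 on day 6, against -0.77 to -0.40 in the rest), and with that score as a covariate the difference was 0.15. By summed level, 1284 CPM in day-6 library 2, the meningeal markers did not set these libraries apart. The same 3 libraries had the highest scores of the fibroblast markers (0.27, 0.88 and 0.74, against -0.71 to -0.49) and of the Schwann cell, macrophage and monocyte, and endothelial markers, and the part of any of these cells in the Il6ra level was not tested.

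Lif in cord was at 0.688, 1.23 and 1.04 CPM on day 1 and 2.32, 0.699 and 1.2 CPM on day 6. Its log2 difference of 0.52 ± 0.46 (edgeR adjusted p = 0.690) rested on day-6 library 1, without which it was -0.09. The same library had the most neutrophil RNA. The 7 neutrophil markers summed to between 17.0 and 39.8 CPM on day 1 and to 506, 74.9 and 124 CPM on day 6, with 0 of 7 called and none at 0, and their part in these levels was not tested. Il6st was at 83.8, 101 and 81.4 CPM on day 1 and 108, 86.5 and 104 CPM on day 6 (log2 difference 0.16 ± 0.11), Osmr at 8.56, 10.7 and 7.85 CPM and then 10.2, 8.76 and 11.9 CPM (0.18 ± 0.16), and Stat3 at 112, 123 and 112 CPM and then 109, 105 and 116 CPM (-0.08 ± 0.07). The groups of these 3 genes overlapped, with edgeR adjusted p of 0.626, 0.686 and 0.701. Lifr was at 126, 114 and 119 CPM on day 1 and 112, 137 and 102 CPM on day 6. Il6 had 4, 0 and 0 reads on day 1 and 0, 1 and 0 reads on day 6, Osm had 1 to 8 reads per library and Il31ra 0 to 7.

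Whether paw and DRG responded differently was tested as an interaction over the 18 paw and DRG libraries, in which all 10 members passed the filter. edgeR called 0 of 10 members on day 1, beside 0% of all 16461 genes, and 0 of 10 on day 6, beside 0.498%. At an unadjusted p under 0.05 there were 0 members on day 1 and 2 on day 6, and limma voom and DESeq2 called 0 members on either day. The 2 on day 6 were Il6, whose difference from control was lower in paw than in DRG, with a log2 difference of -3.96 ± 1.21 (edgeR adjusted p = 0.265), and Stat3, at -0.51 ± 0.19 (edgeR adjusted p = 0.458). Socs3 gave -1.08 ± 0.53 (edgeR adjusted p = 0.675). Il6 had 2 to 14 reads per DRG library, so its DRG change was poorly measured. It passed the filter of this fit mainly through the paw control and day-1 libraries, so its difference was partly set by the filter.

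Other genes of the pathway were followed in 6 lists with 79 symbols, chosen like the members with earlier results known. Among the other ligands of the family, 1 of 6 tested was called in paw on day 6 against control and 0 fell. It was Ebi3, a subunit of the cytokines IL-27 and IL-35, at 0.524, 0.452 and 0.747 CPM in controls, 0.702, 0.838 and 0.574 CPM on day 1 and 1.83, 1.53 and 1.77 CPM on day 6. Every day-6 library lay above all the others, by 1.56 ± 0.28 against control on the log2 scale (edgeR adjusted p = 0.049). The call was lost without any 1 of the 6 control and day-6 libraries (edgeR adjusted p from 0.091 to 0.216), with only these groups in the fit (0.120) and without a filter on low counts (0.051). In DRG, Ebi3 was not called, with 0.60 ± 0.21 on day 6 (edgeR adjusted p = 0.995), and the difference between the tissues was 0.96 ± 0.31 (edgeR adjusted p = 0.313). Il27ra, a receptor chain for IL-27, did not pass either, at 1.28 ± 0.46 in paw on day 6 against control (edgeR adjusted p = 0.370).

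The list of 34 genes known as STAT3 targets had mostly negative differences in paw on day 6. Of 32 tested, 28 had negative log2 differences from control, with a median of -0.41, 11 had an unadjusted p under 0.05, and 1 was called, lower. Over all genes 46.7% were positive, the median was -0.01 and 9.74% had an unadjusted p under 0.05. That gene was Saa3, an acute-phase serum amyloid protein, at 14.5, 16.7 and 6.99 CPM in controls, 5.62, 4.63 and 4.36 CPM on day 1 and 0.372, 1.23 and 0.435 CPM on day 6. Its 3 groups did not overlap, and it fell on day 6, with a log2 difference of -4.19 ± 0.50 against control (edgeR adjusted p = 0.015) and of -2.80 ± 0.48 against day 1 (edgeR adjusted p = 0.040). The call against control was lost when any 1 of controls 2 and 3 or of the day-6 libraries 1 and 2 was left out, and with only these groups in the fit (edgeR adjusted p from 0.058 to 0.071). The call against day 1 was lost without any 1 of its 6 libraries (edgeR adjusted p from 0.089 to 0.161). On day 1 in paw, where 50.8% of all genes were positive, 22 of 32 targets were negative, with a median of -0.16 and 0 called by edgeR, 5 of them at an unadjusted p under 0.05. The day-1 and day-6 comparisons share their control libraries. Genes of this list may vary together, so these counts are not of independent results. In paw the neutrophil markers summed to 312, 390 and 45.0 CPM in controls and to 23.6, 130 and 14.4 CPM on day 6. Their part in the differences of this list was not tested.

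In DRG on day 1, 20 of 29 tested genes of this list were positive, beside 49.6% of all genes, with a median of 0.15 beside about 0 over all genes, and 2 were called, both higher. Icam1, a leukocyte adhesion molecule, was at 4.23, 3.46 and 4.22 CPM in controls, 16.4, 14.1 and 11.5 CPM on day 1 and 5.65, 5.31 and 3.62 CPM on day 6. It rose by 1.82 ± 0.19 on day 1 (edgeR adjusted p = 0.0037) and then fell, with a difference of -1.52 ± 0.18 between day 6 and day 1 (edgeR adjusted p = 0.011), and day 6 overlapped with control. The day-1 rise passed in all 15 alternatives run, and the call between the days was lost when library 1 of day 1, or either library 2 or 3 of day 6, was left out (edgeR adjusted p from 0.053 to 0.066). Ccnd1, which encodes cyclin D1, was at 73.9, 77.8 and 70.9 CPM in controls and 114, 115 and 93.8 CPM on day 1, a rise of 0.54 ± 0.09 (edgeR adjusted p = 0.048). This call was lost with limma voom (0.057), with the muscle covariate (0.065), with only these groups in the fit (0.108), and without any 1 of controls 1, 2 and 3 or day-1 libraries 1 and 2 (edgeR adjusted p from 0.141 to 0.221). In paw, Icam1 did not pass on day 1 (0.81 ± 0.29, edgeR adjusted p = 0.416), nor did the difference between the tissues (-1.01 ± 0.37, edgeR adjusted p = 0.417). As background, Icam1 is also a target of NF-κB. In the interaction of tissue and day, 0 of 32 targets were called by edgeR on either day, with 6 at an unadjusted p under 0.05 on each.

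Among negative regulators of JAK-STAT signalling other than Socs3, 15 of 15 were tested in paw. Only Ptpn6, the phosphatase SHP-1 of blood cells, was called, on day 6 against day 1. It was at 24.6, 19.6 and 20.8 CPM in controls, 21.7, 21.6 and 21.2 CPM on day 1 and 34.1, 36.5 and 29.9 CPM on day 6, a log2 difference of 0.64 ± 0.11 (edgeR adjusted p = 0.043), and against control it missed the threshold at 0.63 ± 0.11 (edgeR adjusted p = 0.053). The call was lost without any 1 of day-1 libraries 1, 2 and 3 or of day-6 libraries 1 and 2 (edgeR adjusted p from 0.145 to 0.210). The macrophage and monocyte markers given above were higher in the same libraries, and their part in it was not tested. In DRG 0 of 15 regulators were called by edgeR in any comparison, and Socs1 and Ptpn2 had the smallest p on day 1 (log2 differences of 0.54 ± 0.35 and 0.15 ± 0.10, edgeR adjusted p = 0.822 and 0.826).

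No other JAK or STAT gene was called by edgeR in any of the 7 comparisons. Jak2 had the smallest p of the 9 tested in paw, at -0.26 ± 0.08 on day 6 against control and -0.32 ± 0.08 against day 1 (edgeR adjusted p = 0.255 and 0.111). Of the 4 genes of receptor shedding, which releases soluble IL-6 receptor, Adam17, the main sheddase, had the smallest p in DRG. It was at 0.42 ± 0.08 on day 1 against control (edgeR adjusted p = 0.105) and did not pass. Of the other receptors, Il11ra1, the IL-11 receptor chain, had the smallest p in DRG on day 1, at 0.46 ± 0.12 (edgeR adjusted p = 0.286).

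Many more members passed the test between tissues than between treatments, as did genes in general. In a joint fit of all 24 libraries, the IgG groups of paw and DRG differed for all 10 members, 6 higher and 4 lower in paw, beside 80.7% of all 16864 genes, so a difference between these tissues was the rule. Paw and cord were compared on day 1, where 10 of 10 members were called, 9 higher and 1 lower in paw, beside 83.4% of all genes. DRG and cord on day 1 differed for 8 of 10 members, all higher in DRG, beside 64.2% of all genes. Il6 and Osm passed the filter within paw only, and Il31ra within paw and DRG only. The joint fit kept them through the tissues where they are higher, so their differences from the other tissues were partly set by the filter. A stricter filter, at least 1 CPM in at least 3 libraries, left out Il6 and Osm. The other 8 members were then called in each of these comparisons. In bulk tissue, fewer cells that express a gene and less RNA per cell cannot be told apart. To compare genes, levels were also divided by exon length, the union of all annotated exons. The order of genes per kilobase depends on this choice of length.

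**Figure D4:**
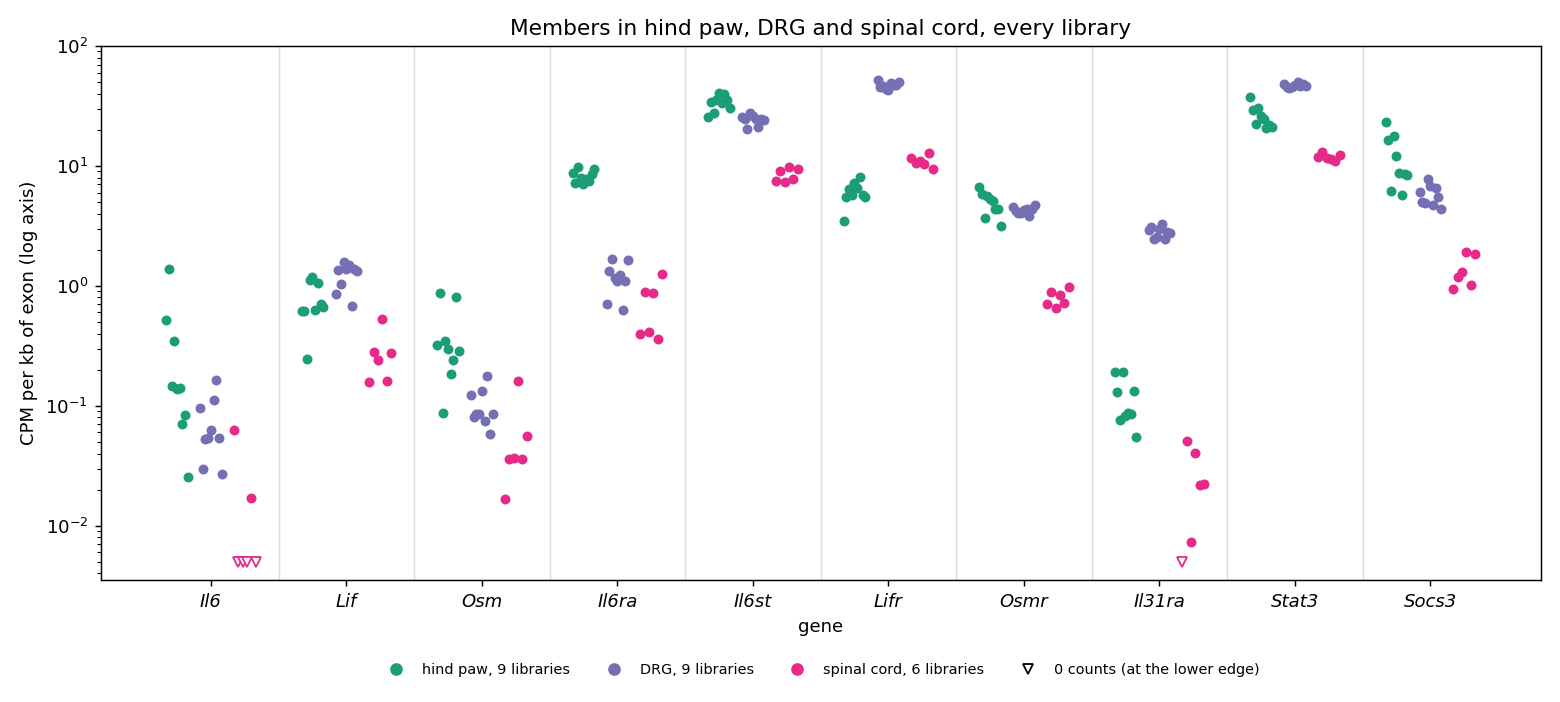
Level of each member in every library of hind paw, DRG and spinal cord, in CPM per kilobase of exon on a log axis, normalised within each tissue; open triangles at the lower edge are libraries with 0 reads. Il31ra and Lifr are highest in DRG, Il6ra is highest in paw, and Il6 and Osm lie near the detection limit in DRG and cord.

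The receptor chains had distinct tissue patterns. Il31ra ranged from 13.8 to 18.7 CPM in the 9 DRG libraries, from 0.311 to 1.10 CPM in paw and from 0 to 0.286 CPM in cord, and the tissues did not overlap. In paw controls its log2 difference from DRG controls was -4.33 ± 0.40 (edgeR adjusted p = 3.5e-09), and in DRG it was higher than in cord by 7.25 ± 0.51 (edgeR adjusted p = 2.2e-10). The difference from cord depended on a few reads, and was 9.44 without cord day-1 library 2, which held 7 reads while the other two held 0 and 1. Lifr ranged from 465 to 565 CPM in DRG, 102 to 137 CPM in cord and 37.6 to 87.4 CPM in paw, again without overlap, with a log2 difference of -3.17 ± 0.18 between paw and DRG controls (edgeR adjusted p = 1.3e-12) and of -0.70 ± 0.16 between paw and cord on day 1 (edgeR adjusted p = 0.00058). Lifr was the only member lower in paw than in cord.

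Il6ra had the opposite pattern, with 61.2 to 84.6 CPM in paw, 5.45 to 14.4 CPM in DRG and 3.13 to 10.8 CPM in cord. It was higher in paw than in DRG by 2.85 ± 0.40 (edgeR adjusted p = 2.25e-06) and higher in DRG than in cord by 1.06 ± 0.40 (edgeR adjusted p = 0.026), the latter with ranges that overlapped over all libraries. That call from DRG to cord was lost without DRG day-1 library 3 (edgeR adjusted p = 0.057), cord day-1 library 1 (0.109) or cord day-1 library 3 (0.102). Osmr was at 38.4 to 80.1 CPM in paw, 46.4 to 56.8 CPM in DRG and 7.85 to 11.9 CPM in cord. Its paw and DRG controls differed by 0.41 ± 0.17 (edgeR adjusted p = 0.035) with overlapping values, and the call was lost with limma voom (adjusted p = 0.213) and without paw control 1 (0.299), paw control 2 (0.088) or DRG control 1, 2 or 3 (0.053, 0.072 and 0.098). Il6st was at 282 to 451 CPM in paw, 225 to 305 CPM in DRG and 81.4 to 108 CPM in cord, and its small difference of 0.37 ± 0.12 between paw and DRG controls (edgeR adjusted p = 0.0096) was lost without paw control 2 (0.072) or DRG control 3 (0.067).

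Stat3 was highest in DRG, at 425 to 475 CPM against 198 to 357 CPM in paw and 105 to 123 CPM in cord, with no overlap between tissues. The log2 difference between paw and DRG controls was -0.57 ± 0.13 (edgeR adjusted p = 0.00059), and Stat3 was higher in DRG than in cord by 2.00 ± 0.14 (edgeR adjusted p = 1.3e-10). Socs3 ran from 16.6 to 67.5 CPM in paw, 12.6 to 22.5 CPM in DRG and 2.71 to 5.51 CPM in cord. It was higher in paw than in DRG controls by 1.61 ± 0.37 (edgeR adjusted p = 0.00053) and higher in DRG than in cord by 2.54 ± 0.40 (edgeR adjusted p = 1.8e-05). Stat3 and Socs3 were thus ordered differently over paw and DRG.

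Of the ligands, Lif had the highest level per length in DRG and cord. Per kilobase of exon it stood at 1.09 ± 0.26 CPM (SD, n = 3) in DRG controls, against 0.0599 ± 0.034 for Il6 and 0.0964 ± 0.024 for Osm. In cord on day 1 it stood at 0.226 ± 0.063 CPM per kilobase, against 0.0210 ± 0.036 for Il6 and 0.0298 ± 0.011 for Osm. In paw controls it stood at 0.493 ± 0.22 CPM per kilobase, against 0.683 ± 0.64 for Il6 and 0.425 ± 0.40 for Osm, so the 3 ligands could not be ordered there. Lif was lower in paw controls, with a log2 difference of -1.08 ± 0.38 from DRG controls (edgeR adjusted p = 0.015), a call lost without paw control 3 (0.086) or DRG control 2 (0.067). It was higher in DRG than in cord on day 1 by 2.74 ± 0.41 (edgeR adjusted p = 8.8e-06). Il6 was higher in paw than in DRG controls by 3.58 ± 0.80 (edgeR adjusted p = 0.00043), and by 2.58 without paw control 2. Osm was higher by 2.19 ± 0.68 with overlapping values (edgeR adjusted p = 0.0063), a call lost with limma voom (0.058) and without paw control 2 (0.126). Between DRG and cord on day 1 the differences of Il6 and Osm did not pass, at 1.74 ± 1.16 and 1.71 ± 0.95 (edgeR adjusted p = 0.197 and 0.123), and they passed with limma voom (0.044 and 0.026). Without cord day-1 library 1, which held all 4 day-1 reads of Il6, the Il6 difference passed in edgeR too (edgeR adjusted p = 0.038).

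Per kilobase of exon, the receptor chains of DRG controls were ordered as Lifr at 48.0 ± 3.8 CPM, Il6st at 23.6 ± 2.9, Osmr at 4.25 ± 0.25, Il31ra at 2.82 ± 0.33 and Il6ra at 1.23 ± 0.48, and none of the neighbours in this order overlapped. In paw controls the order was Il6st at 29.1 ± 4.6, Il6ra at 8.56 ± 1.3, Osmr at 5.36 ± 1.5, Lifr at 5.13 ± 1.5 and Il31ra at 0.133 ± 0.058 CPM per kilobase, where Osmr and Lifr were within the spread of each other. Several members are neighbours in the genome, with no protein-coding gene between Lif and Osm on chromosome 11, Il6st and Il31ra on chromosome 13, or Lifr and Osmr on chromosome 15 in RefSeq. Neighbours did not share a tissue pattern: in paw controls Il31ra stood at 0.0497 times and Il6st at 1.29 times the DRG control level, and Lifr stood at 0.111 times and Osmr at 1.32 times that level.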

How the data were processed

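Poly(A) RNA of 24 libraries (8 groups of 3) was sequenced as single reads of 50 bases from a stranded kit, per the labels' protocols. The authors deposited raw counts per gene, 1 table per library. Per the submitters' processing notes, bcl2fastq, TopHat2, HTSeq and the mouse build mm9 were used; versions and the strand setting of the counting are not given in the sources used here. After removal of 5 summary lines a table held 22609 genes, and 0 columns of other samples were present. No 2 libraries of a group were identical.

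Genes were filtered with filterByExpr, scaled with TMM and tested 2-sided with the quasi-likelihood F test of edgeR 4.0.16 in R 4.3.3, robust, in 1 fit per tissue. Paw and DRG responses were compared as an interaction, and tissues in 1 fit of all libraries. These fits treated libraries of different tissues as independent, although some may come from the same animals. P-values were adjusted by Benjamini-Hochberg over all genes tested, with a threshold of 0.05. Intervals are unadjusted 95% confidence intervals. Log2 fold changes are printed singly where at least as large as their standard error. Named genes were all 10 members, in each pathway list the up to 5 called genes with the smallest p or else up to 2 with the smallest p, and the 4 best correlated genes of Socs3, Osmr and Il6 in paw and DRG; 1 of these matches is not reported here. Members and lists were chosen with earlier results of these data known. The alternatives were other scalings and filters, limma 3.58.1 voom, DESeq2 1.42.0, a replicate block, marker scores as covariates, fits restricted to the 2 groups of a comparison, and fits leaving out 1 library at a time. The scripts were tested on simulated data. Exon lengths are the union of all annotated exons of a gene, from a later mouse annotation than mm9, so levels per kilobase are approximate. The union can be longer than the transcript expressed, to a different degree for each gene, and the SD does not cover this. Promoter sequences are from RefSeq (GRCm38.p6) and were matched by symbol.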

Additional observations from a re-analysis of the deposited data

How the results depend on the processing

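No member was called within a tissue by edgeR under any alternative, and the 1 call by another tool was Il6 on day 6 in paw with DESeq2 (1 member, log2 difference -3.47). Over all 61 differences of members within a tissue, whatever their size, 89 of 897 alternatives changed direction, in 26 of these differences. Of the 33 differences of members within a tissue that were at least as large as their standard error, over 484 alternatives, 482 kept their direction and side of the threshold. The others were that call and Lif in cord, which ranged from -0.086 to 0.86 when each library was left out and was negative without day-6 library 1. For the 11 such differences of members between paw and DRG responses, all 207 alternatives kept theirs. For members between tissues, 366 of 384 did, with 15 calls lost in 5 members' comparisons and 3 gained in 2, each named in the report. The calls of genes outside the members, put through the same alternatives after the data were seen, were lost in 9 of 15 for Ebi3, 5 of 15 for Saa3 against control and 6 of 15 against day 1, 6 of 15 for Ptpn6, 8 of 15 for Ccnd1, and 0 of 15 (day 1 against control) and 3 of 15 (between the days) for Icam1 in DRG, and none changed direction. Counts over all genes were less steady. On day 6 against control in paw the count was 108, against 509 with DESeq2, 179 with the muscle covariate, 0 with only the groups compared, and 0 to 155 with a library left out. Leaving out control 2 or 3, or either of the first 2 day-6 libraries, gave 0. Between day 6 and day 1 in paw the count of 157 became 623 with limma voom, 737 with DESeq2, 348 with the muscle covariate and 0 to 141 with a library left out. DESeq2 also called more genes elsewhere (209 on day 1 in paw, 131 on day 1 in DRG, 106 between the DRG days, 64 in cord, and 59 and 234 for the responses), and leaving out a DRG library gave 8 to 35 on day 1 against 26, and 1 to 24 between the days against 16. The count for the day-6 responses, 82, became 19 to 173 with a library left out. With the replicate number as a block (replicate block), 130 genes were called on day 6 in paw, Il6 had a log2 difference of -3.30 (edgeR adjusted p = 0.127), and no member's call changed, while the calls of Ebi3 (0.106) and Ptpn6 (0.073) did not pass. Same-numbered libraries of different treatment groups of a tissue did not consistently deviate together (r from -0.64 to 0.32 in paw, -0.69 to 0.24 in DRG and -0.60 to -0.18 in cord). Of these pairs, 2 of 9, 2 of 9 and 0 of 3 correlated best with their own number. Whether same-numbered libraries of different tissues deviate together, as they might if taken from the same animals, was not checked. Low counts limit Il6, Osm and Il31ra most, and 3 libraries per group limit all members.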
